A study of Mus musculus with 12 samples.

Results

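In spermatogenic cells of mouse testes, 1344 regions were listed as H2A.Z peaks when Ino80 was deleted, but not when it was intact, and carried no INO80 peak. They are the peaks of the knockout H2A.Z list that overlapped, by 1 bp or more, no peak of the wild-type H2A.Z list and no peak of the INO80 list. The knockout list held 26199 peaks, the wild-type list 33827 and the INO80 list 18139, so the regions were 1344 of 78165 listed peaks. They were 5.13% of the knockout list and 12.2% of the 11019 knockout peaks without INO80. Knockout peaks without a wild-type partner made up 6.62% of the knockout list, or 1735 peaks, and the other 391 of these overlapped INO80. In the other direction, 30.1% of wild-type peaks had no knockout partner, and 8646 of those also lacked INO80. The choice rests on these lists, so the absence of wild-type H2A.Z and INO80 from the regions is a description and carries no test.

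The study precipitated H2A.Z from Ino80WT and Ino80cKO testes and INO80 from Wild type (Ino80WT) testes, with rabbit antibodies and input libraries for each. All mice were on a Mixed background and aged postnatal day 18 (P18), an age at which first-wave germ cells have reached meiotic prophase. Ino80cKO denotes a deletion of Ino80 in the testis by Stra8-Cre, a recombinase active in male germ cells, so cells in which that promoter is silent may still carry the gene. The 12 libraries form 6 groups of 2, with no label on whether a pair came from 1 mouse or more. Every list covers a pair of libraries without scores, so replicate spread and sequencing depth are unknown. Nor could the deletion of Ino80 or the identity of the cells be checked from peak positions. A region missing from a list was not called there, which is not a measurement that H2A.Z was absent.

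The histone variant H2A.Z replaces canonical H2A in nucleosomes at promoters and enhancers, where it commonly sits on the first nucleosome of the transcribed side. SRCAP and related complexes deposit it, and INO80, the ATPase of another remodelling complex, can slide nucleosomes and is reported to take H2A.Z out of them. In male meiosis the X and Y chromosomes are silenced and gathered in the sex body, a separate chromatin compartment.

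Of the regions, 24 covered an annotated start site of a protein-coding gene. The following 300-base windows, from 250 bases before a start site, are shown because they are among those most completely covered and stand for 2 settings described further on. Sequences and start sites are those of RefSeq on GRCm38.p6, the assembly that mm10 names, and read 5′ to 3′ on the strand of the gene. Capitals mark the bases inside the knockout H2A.Z peak. The first 5 starts lay 1 kb or more from any wild-type H2A.Z and INO80 peak.
Dnmt3l, chr10:78049592-78049891, plus strand: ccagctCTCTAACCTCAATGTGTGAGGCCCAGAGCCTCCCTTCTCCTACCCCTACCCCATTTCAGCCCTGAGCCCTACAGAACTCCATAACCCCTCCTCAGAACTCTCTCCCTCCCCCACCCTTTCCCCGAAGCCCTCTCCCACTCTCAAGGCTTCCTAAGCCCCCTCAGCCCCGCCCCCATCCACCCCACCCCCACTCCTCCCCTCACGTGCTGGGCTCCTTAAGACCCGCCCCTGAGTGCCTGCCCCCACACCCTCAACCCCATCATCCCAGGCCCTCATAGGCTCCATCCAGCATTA
Kcnip4, chr5:48599633-48599932, minus strand: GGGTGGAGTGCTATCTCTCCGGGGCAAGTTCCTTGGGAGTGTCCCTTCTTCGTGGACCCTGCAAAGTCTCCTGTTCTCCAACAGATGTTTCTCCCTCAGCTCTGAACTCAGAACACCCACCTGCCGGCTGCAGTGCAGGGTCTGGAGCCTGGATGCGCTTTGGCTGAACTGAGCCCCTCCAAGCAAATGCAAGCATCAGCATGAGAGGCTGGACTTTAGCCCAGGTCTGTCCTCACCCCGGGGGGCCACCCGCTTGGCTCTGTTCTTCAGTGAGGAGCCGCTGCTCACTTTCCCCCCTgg
Krt20, chr11:99438104-99438403, minus strand: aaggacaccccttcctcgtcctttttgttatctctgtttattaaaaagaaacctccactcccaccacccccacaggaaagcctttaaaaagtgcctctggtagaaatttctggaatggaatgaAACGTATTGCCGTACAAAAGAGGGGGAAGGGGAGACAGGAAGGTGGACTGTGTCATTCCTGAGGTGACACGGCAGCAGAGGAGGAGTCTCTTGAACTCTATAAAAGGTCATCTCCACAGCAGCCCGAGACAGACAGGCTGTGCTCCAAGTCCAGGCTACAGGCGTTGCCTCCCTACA
Igbp1, chrX:100494041-100494340, plus strand: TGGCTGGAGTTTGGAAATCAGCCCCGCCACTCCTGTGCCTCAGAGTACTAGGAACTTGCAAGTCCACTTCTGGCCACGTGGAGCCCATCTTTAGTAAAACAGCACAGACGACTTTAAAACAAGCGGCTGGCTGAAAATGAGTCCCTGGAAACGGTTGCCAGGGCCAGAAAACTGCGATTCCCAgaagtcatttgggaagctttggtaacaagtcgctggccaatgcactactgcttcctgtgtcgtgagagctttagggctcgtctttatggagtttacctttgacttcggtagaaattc
Pak3, chrX:143518341-143518640, plus strand: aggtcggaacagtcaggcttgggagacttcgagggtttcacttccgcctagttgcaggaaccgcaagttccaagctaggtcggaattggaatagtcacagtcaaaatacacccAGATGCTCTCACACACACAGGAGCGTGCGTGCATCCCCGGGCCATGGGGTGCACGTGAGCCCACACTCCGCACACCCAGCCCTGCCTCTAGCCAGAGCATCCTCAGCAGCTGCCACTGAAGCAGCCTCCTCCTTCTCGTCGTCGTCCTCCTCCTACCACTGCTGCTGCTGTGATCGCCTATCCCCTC

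The start base is counted as position 0, and upstream positions are negative. The Dnmt3l peak covered positions -244 to 49 at 1 of 3 annotated starts of this gene, which encodes a cofactor of de novo DNA methyltransferases in germ cells. The Kcnip4 peak covered -250 to 47 at 1 of 2 starts of a potassium channel-interacting protein, whose other start had a wild-type H2A.Z peak. The Krt20 peak, at an epithelial keratin, covered -127 to 49 and with it the TATAAA whose first base is at -29. The Igbp1 peak lay upstream, ending at -68, at an X-linked gene for a phosphatase-binding protein. The Pak3 peak covered -137 to 49 at 1 of 3 starts of an X-linked kinase gene. None of the 5 windows reached the composition of a CpG island, defined here as a GC content of at least 55% with observed over expected CpG of at least 0.6. Dnmt3l had 4 CpG and 62.7% GC, Kcnip4 7 CpG and 59.7%, and Krt20 had 6 CpG.

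The next pair of starts lay under 1 kb from a wild-type H2A.Z peak.
Timm8a1, chrX:134541621-134541920, minus strand: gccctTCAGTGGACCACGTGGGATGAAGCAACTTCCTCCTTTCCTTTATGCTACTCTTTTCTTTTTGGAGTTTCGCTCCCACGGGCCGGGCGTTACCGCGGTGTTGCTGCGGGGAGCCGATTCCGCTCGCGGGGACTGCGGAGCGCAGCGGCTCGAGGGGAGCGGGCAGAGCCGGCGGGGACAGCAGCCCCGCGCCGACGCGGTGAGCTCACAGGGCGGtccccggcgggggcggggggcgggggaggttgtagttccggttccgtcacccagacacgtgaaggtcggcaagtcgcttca
Catsperg1, chr7:29210876-29211175, minus strand: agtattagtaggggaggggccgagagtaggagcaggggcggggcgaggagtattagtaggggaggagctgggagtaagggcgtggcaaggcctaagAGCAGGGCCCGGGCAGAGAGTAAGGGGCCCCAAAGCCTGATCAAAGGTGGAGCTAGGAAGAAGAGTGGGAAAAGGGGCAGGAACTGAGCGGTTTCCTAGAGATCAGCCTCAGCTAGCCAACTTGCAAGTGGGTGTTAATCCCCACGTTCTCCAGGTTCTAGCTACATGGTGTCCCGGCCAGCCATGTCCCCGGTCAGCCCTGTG

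At Timm8a1, an X-linked gene for a mitochondrial import protein, the knockout peak covered -245 to -32 and ended 42 bases from a wild-type H2A.Z peak. Its window held 34 CpG, with 67.7% GC and an observed over expected ratio of 1.01. At Catsperg1, which encodes a subunit of the sperm calcium channel CatSper, the peak covered -154 to 49 and lay 242 bases from wild-type H2A.Z. Its window held 9 CpG. These 2 starts thus carried H2A.Z peaks of both genotypes that did not touch.

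The regions were narrow. Their widths ran from 147 to 742 bp with a median of 180 bp and quartiles of 155 and 235 bp, where the whole knockout list had a median of 422 bp. The smallest width in the list, 147 bp, was held by 199 of them (14.8%), and 37 (2.75%) were 400 bp or wider. Medians were 202 bp for knockout-only peaks with INO80, 227 bp for wild-type-only peaks without INO80, 286 bp for shared knockout peaks without INO80 and 638 bp for shared knockout peaks with INO80. Width is tied to the rule, since a wider peak has more chance to touch another list, and it received no test.

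**Figure D1:**
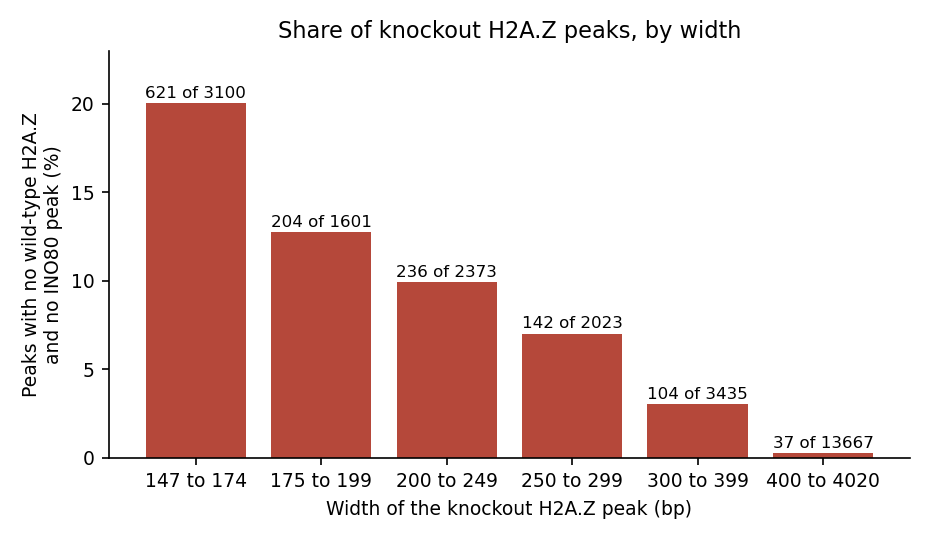
Bars give the percentage of knockout H2A.Z peaks that overlapped neither wild-type H2A.Z nor INO80, by peak width in bp, with counts above the bars. The share falls from 621 of 3100 peaks of 147 to 174 bp to 37 of 13667 peaks of 400 bp or more.

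By width, the share of knockout peaks that belonged to the set went from 621 of 3100 at 147 to 174 bp through 9.95% (236 of 2373) at 200 to 249 bp to 0.271% (37 of 13667) at 400 bp or more. The 10 widest lay in or near genes of varied function. The widest, 742 bp, was inside Etl4, 104 kb from the nearest wild-type H2A.Z peak and 284 kb from INO80. The next, 708 bp, lay 6.12 kb from Foxi3, a forkhead factor of ectodermal organs. A peak of 594 bp lay 17.9 kb from Mybl1, the transcription factor A-MYB that drives pachytene genes, and one of 593 bp lay 170 kb from Olig3, a neural basic helix-loop-helix factor, and 1.79 kb from wild-type H2A.Z. Peaks of 665 bp inside Filip1 and 585 bp inside Crlf2 lay 527 and 314 bases from wild-type H2A.Z. The other 4 were at Ghrh (615 bp), near Padi2 (588 bp), inside Cdc20b (585 bp) and inside Acbd4 (578 bp, a width shared with a region inside Dmrtb1). Thus 8 of the 10 widest were 1 kb or more from both other lists.

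Near the edge of the rule, 18 regions had 10 or fewer bases between them and a wild-type H2A.Z peak (smallest gap 1 base), and 1 had 3 bases to an INO80 peak. Just on the other side, 9 shared knockout peaks without INO80 overlapped a wild-type peak by 10 or fewer bases (smallest 4), and 1 knockout-only peak overlapped INO80 by 9 bases. The median distance to the nearest wild-type H2A.Z peak was 7.92 kb (quartiles 0.422 and 27.0 kb), and to INO80 33.3 kb (8.94 and 98.6 kb). Under 1 kb lay 446 regions (33.2%) from wild-type H2A.Z and 173 (12.9%) from INO80, while 100 (7.44%) were more than 100 kb from wild-type H2A.Z. The mirror class, wild-type-only peaks without INO80, had a median of 21.0 kb to the nearest knockout peak, with 11.7% under 1 kb.

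**Figure D2:**
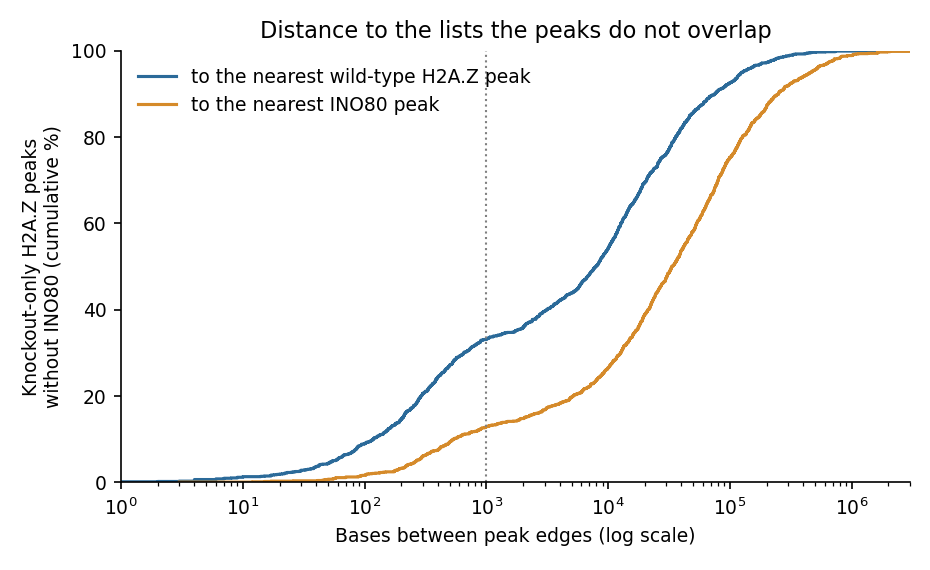
Curves give the cumulative percentage of the 1344 regions by the number of bases to the nearest wild-type H2A.Z peak (blue) and INO80 peak (orange), on a log scale, with 1 kb dotted. At 1 kb the curves stand at 33.2% and 12.9%.

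The regions therefore fell into 2 settings. In the first, called flanking here, 478 regions (35.6%) lay under 1 kb from a wild-type H2A.Z or INO80 peak, 141 of them from both. In the second, called isolated, 866 (64.4%) lay 1 kb or more from either. Flanking regions did not always sit beside H2A.Z that was kept in the knockout. Of the 446 near wild-type H2A.Z, the nearest wild-type peak had a knockout partner for 180 and none for 266, so that at these 266 the knockout peak lay beside a wild-type-only peak. Of the 37 regions of 400 bp or more, 31 were isolated.

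The position relative to genes is not used by the rule and was tested. Within 1 kb of a start site of a protein-coding gene lay 175 of 1299 regions, or 13.5% (95% Wilson interval 11.7 to 15.4), leaving out chromosome 18, for which no start sites were used. Among all knockout peaks at starts, 1.51% were such regions. The share at starts was 8.47% of wild-type-only peaks without INO80, an odds ratio of 1.68 (exact conditional 95% interval 1.40 to 2.01, two-sided Fisher's exact test, p = 6.30e-08 after Benjamini-Hochberg adjustment over 9 tests). It was 22.1% of shared knockout peaks without INO80, an odds ratio of 0.550 (0.463 to 0.651, exact test, adjusted p = 3.77e-13). It was 35.1% of knockout-only peaks with INO80, an odds ratio of 0.288 (0.220 to 0.379, exact test, adjusted p = 7.59e-19). INO80 overlap is part of the rule, and the other classes with INO80 were also often at starts. Their shares were 64.4% for shared knockout and 40.3% for wild-type-only peaks with INO80. The odds ratio of 0.288 therefore cannot be told apart from the choice of regions by INO80. Overlap with wild-type H2A.Z is part of the rule too, and it is what sets shared knockout peaks apart from the regions. The odds ratio of 0.550 likewise cannot be told apart from that choice. Within strata of peak width the odds ratio against shared peaks was 0.676 (Mantel-Haenszel, 0.568 to 0.804). The regions were thus more often at gene starts than wild-type-only peaks without INO80. With the limits just given, they were there less often than the other 2 classes tested. Peaks are the units of these tests, so they compare lists and not mice, and neighbouring peaks are not independent.

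The 2 settings differed at starts. Of flanking regions 114 of 462 (24.7%) were at a start, and of isolated regions 61 of 837 (7.29%). Of regions under 1 kb from both wild-type H2A.Z and INO80, 78 of 140 (55.7%) were at a start. The side of the start differed too. Flanking peaks had their centres upstream in 80 of 114 cases (70.2%), with a median of -335 bp, and 72 were more than 250 bp upstream. Isolated peaks had their centres downstream in 43 of 61 cases (70.5%), with a median of 93 bp and quartiles of -16.5 and 203 bp, and 27 fell between 50 and 250 bp downstream. Over both settings the median was -100.5 bp, with 98 of 175 upstream. Wild-type-only peaks without INO80 had a median of -25.75 bp, with 366 of 708 (51.7%) upstream, and shared knockout peaks without INO80 one of 63.5 bp, with 58.9% of 2054 downstream. The settings are defined by distance to the lists that chose the regions, and wild-type peaks cluster at starts themselves, so these values are given without a test.

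**Figure D3:**
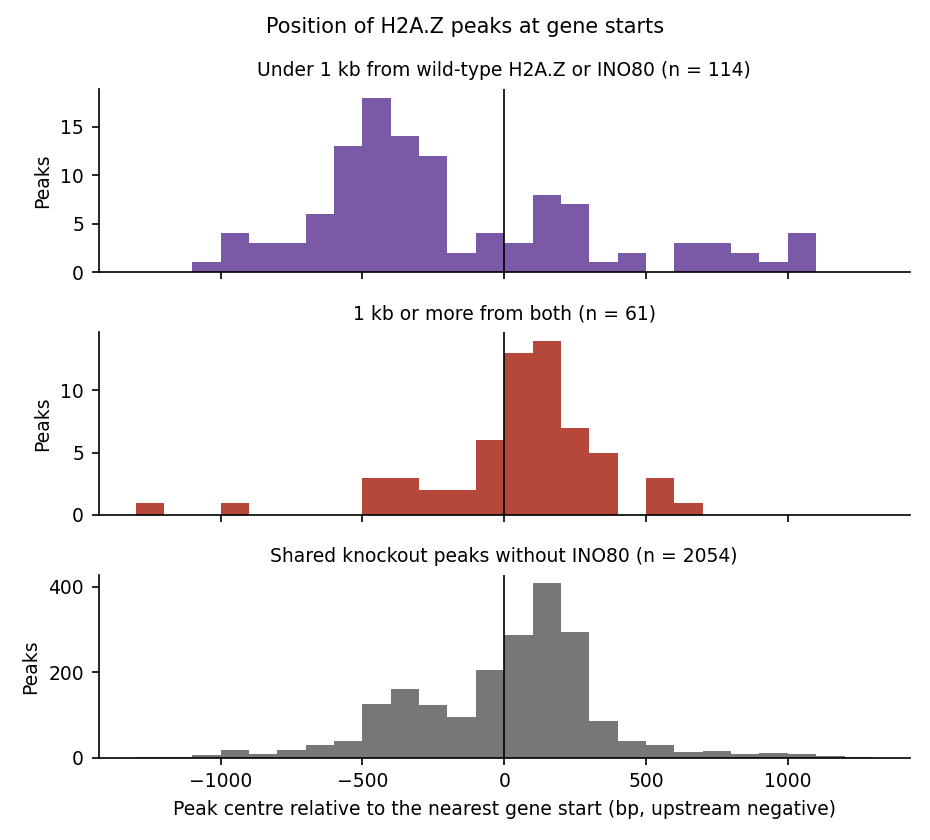
Histograms of peak centres relative to the nearest gene start in bp, upstream negative, for flanking regions (114), isolated regions (61) and shared knockout peaks without INO80 (2054). Flanking regions pile up on the upstream side (median -335 bp), while isolated regions (median 93 bp) and shared peaks (median 63.5 bp) centre just downstream.

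At the level of genes, 180 of 17492 protein-coding genes with a start site (1.03%) had such a region at a start. Of these, 122 (67.8%) also had a wild-type H2A.Z peak at a start, 93 of them with INO80 and 29 without, and 6 had INO80 only. Over all 17492 genes with a start site, 11181 had a wild-type H2A.Z peak at a start, so the 122 lie near the general share. The remaining 52 had neither. At these 52, and at the 6 with INO80 only, the listed H2A.Z was in the knockout alone. The mirror count, genes with a wild-type-only peak without INO80 at the start and no knockout H2A.Z or INO80 there, was 319.

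Among the genes with the widest region at a start, Ghrh, the gene of growth hormone-releasing hormone, had a peak of 615 bp whose edge lay 919 bp upstream of the start, 19.2 kb from wild-type H2A.Z. Pycr1, an enzyme of proline synthesis, had one of 555 bp, centred 346 bp downstream and 3.77 kb from wild-type H2A.Z. The region at Igbp1 measured 384 bp and lay 132 kb from wild-type H2A.Z, in the span of its neighbour Awat2, and that at Krt20 measured 349 bp and lay 42.6 kb away. Dnmt3l had 368 bp, 5.62 kb from wild-type H2A.Z, and an INO80 peak at another of its starts. The overlapping methyltransferase-like genes Methig1 and Mettl7a2 are annotated from the same base and so shared 1 region of 336 bp. These were isolated regions. The flanking ones were at Trim26, a ubiquitin ligase (452 bp, 328 bases from wild-type H2A.Z), Snx18, a sorting nexin (386 bp, 411 bases), Nipal3 (359 bp, 191 bases), Heca (356 bp, 192 bases) and Tex26, a testis-expressed gene (340 bp, 100 bases).

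Of the 52 genes with neither wild-type H2A.Z nor INO80 at a start, 3 are described here that were chosen after their values were seen. They are Gfap, the intermediate filament of astrocytes (220 bp, centred 114.5 bp downstream), Scn2a, a neuronal sodium channel (147 bp, centred at -217 bp), and Gpx8, a peroxidase of the endoplasmic reticulum whose start lies within Cdc20b (214 bp). No functional theme was tested on the 52 genes.

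Chromosome X held 38 of the 1344 regions, or 2.83% (95% Wilson interval 2.07 to 3.86). Of all protein-coding genes 4.41% lie on X, above this share and those of the classes compared next. For wild-type-only peaks without INO80 the share was 1.15%, an odds ratio of 2.51 (1.67 to 3.70, exact test, adjusted p = 1.65e-05). For shared knockout peaks without INO80 it was 1.54%, an odds ratio of 1.86 (1.26 to 2.69, exact test, adjusted p = 0.00185). This second difference did not pass the threshold among peaks of 200 bp or more (odds ratio 1.49, 0.741 to 2.73, exact test, adjusted p = 0.229). It also cannot be told apart from the choice of regions by wild-type overlap. Against knockout-only peaks with INO80, 2.05% of which (8 of 391) were on X, the odds ratio of 1.39 (0.633 to 3.49, exact test, adjusted p = 0.477) did not pass either, and its interval leaves room for a difference in either direction. Over the knockout list the regions were 8.74% of X peaks (38 of 435, 95% Wilson interval 6.43 to 11.8) and 5.06% of autosomal peaks, with a range over single autosomes of 3.49% on chromosome 14 to 6.19% on chromosome 15. Both of the 2 knockout peaks on chromosome Y were in the set, 1 of them at Zfy1 (147 bp) and 1 at the predicted gene Gm10352 (165 bp). The Gm10352 region was flanking, 732 bases from wild-type H2A.Z. The wild-type list held 9 peaks on Y, 8 of them wild-type-only without INO80. Whether reads could be placed uniquely on Y was not tested.

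**Figure D4:**
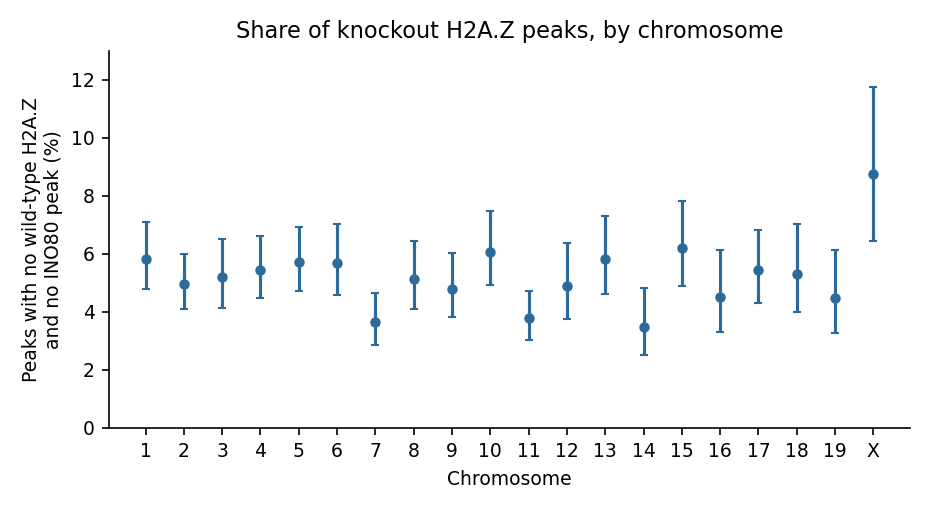
Points give the percentage of knockout H2A.Z peaks on each chromosome that overlapped neither wild-type H2A.Z nor INO80, with 95% Wilson intervals that cover counting error only. Chromosome X stands at 8.74%, above the highest autosome at 6.19%, and chromosome Y with its 2 peaks is not drawn.

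The X-linked regions lay at gene starts more often than the autosomal ones, with 26 of 38 (68.4%) against 147 of 1259 (11.7%). X-linked peaks of other classes were also often at starts, in 50 of 99 cases (50.5%) among wild-type-only peaks and 97 of 149 (65.1%) among shared peaks, both without INO80. Of the 52 genes with a region and neither wild-type H2A.Z nor INO80 at a start, 14 (26.9%) were X-linked, where X holds 4.67% of all genes with start sites. The same share was 11.9% (38 of 319) for the mirror genes and 6.93% (94 of 1356) for genes with H2A.Z of both genotypes and no INO80. These gene shares were computed after the counts had been seen and were not tested.

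The 14 genes were Armcx6, Car5b, Emd, Eola1, Gpkow, Igbp1, Igsf1, Lage3, Pak3, Rtl8c, Sytl4, Xlr, Zc4h2 and Zfp300, and apart from Igbp1 they are named after their values were seen. Emd, which encodes the nuclear envelope protein emerin, had a region of 271 bp centred 360 bp downstream of its start, 4.90 kb from wild-type H2A.Z. Car5b, a mitochondrial carbonic anhydrase, had 244 bp at 127.5 bp downstream, 69.2 kb away. Sytl4, a regulator of granule secretion, had 204 bp at 146.5 bp downstream, 77.5 kb away. Pak3 had 242 bp centred at -16.5 bp, 124 kb away, and Klf8, a zinc finger gene with wild-type H2A.Z at another start, had 164 and 147 bp regions, 121 and 122 kb away. Gpkow, Zfp300, Igsf1, Xlr, Eola1 and Lage3 each had a region of the smallest width, 147 bp. Rtl8c, Xlr, Rhox2a and Rhox2e belong to multigene families, and whether reads could be placed on 1 copy was not tested. Of the 27 Rhox homeobox genes with a start site, which are reproductive genes clustered on X, these last 2 (7.41%) had a region at the start, both flanking. Beside them, 25 of all 817 X-linked genes with a start site had one, and 1.03% of such genes on all chromosomes.

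Inside protein-coding genes, between the annotated ends, lay 493 of 1344 regions, or 36.7% (95% Wilson interval 34.1 to 39.3), touching 475 genes (2.17% of 21887). Wild-type-only peaks without INO80 were inside at 35.3%, an odds ratio of 1.06 (0.940 to 1.20, exact test, adjusted p = 0.368), which bounds the difference at that interval. Shared knockout peaks without INO80 were inside at 45.6%, an odds ratio of 0.692 (0.614 to 0.780, exact test, adjusted p = 1.62e-09). Knockout-only peaks with INO80 were inside at 68.3%, an odds ratio of 0.269 (0.210 to 0.344, exact test, adjusted p = 1.54e-27). Shared knockout and wild-type-only peaks with INO80 were inside at 85.6% and 70.9%. The odds ratio of 0.269 therefore cannot be told apart from the choice of regions by INO80, nor that of 0.692 from their choice by wild-type overlap. Within strata of peak width the odds ratio against shared knockout peaks without INO80 was 0.850 (Mantel-Haenszel, 0.752 to 0.961), a smaller difference. The touched genes were long, with a median of 51.2 kb against 17.2 kb over all protein-coding genes, and a longer gene has more room for a peak. Only Tshz2, a zinc finger homeobox gene of 440 kb, held 3 regions (166, 156 and 166 bp), and 26 genes held 2.

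The 10 gene lists describe what the regions were near, read against 1.03% of genes at starts, 2.17% inside and 5.54% nearest to a region. Of 38 genes of meiotic recombination and synapsis with a start site, 2 (5.26%) had a region at the start. Mlh3, a MutL homologue needed for crossovers, had 174 bp centred at -468.5 bp. Psmc3ip, which encodes the strand exchange factor HOP2, had 172 bp centred 188.5 bp downstream. Both were flanking, 348 and 213 bases from wild-type H2A.Z, and both genes had wild-type H2A.Z and INO80 at the start. None of 28 genes of INO80, SRCAP and H2A.Z machinery, 32 of DNA repair, 25 of the piRNA pathway, 30 spermatogonial genes and 77 developmental regulators held a region inside or, where a start site was known, at a start. Inside was 1 of 48 for polycomb and histone methylation (Aebp2, 147 bp), 1 of 42 for spermiogenesis (Spata16, 235 bp) and 1 of 37 for somatic testis cells (Fshr, the Sertoli cell receptor for follicle-stimulating hormone, 148 bp), with 0 at starts in each of these 3 lists. By nearest gene, the counts were 5 of 47 for meiotic recombination (10.6%), 5 of 37 for somatic testis cells (13.5%), 5 of 77 for developmental regulators (6.49%) and 3 of 42 for spermiogenesis (7.14%). They were 3 of 48 for polycomb (6.25%), 2 of 32 for DNA repair (6.25%), 2 of 25 for the piRNA pathway, 1 of 30 for spermatogonial genes (3.33%) and 0 of 28 for the INO80, SRCAP and H2A.Z machinery.

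Of 76 genes of neuronal adhesion and synapse, 14 (18.4%) held a region inside, beside 2.17% of all genes, and 1 of 52 had one at a start. They were nearest to a region in 19 of 76 cases, beside 5.54% of all genes. Their median length was 949 kb, against 17.2 kb for all genes, so length moves with this count, and its part in the count was not tested. Cntnap4, a neurexin-family adhesion gene, held regions of 391 and 150 bp, the first 123 kb from wild-type H2A.Z. Kcnip4 held the 320 bp region printed above, and Pcdh9, a protocadherin, held 243 and 149 bp.

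The DNA of start windows that a region overlapped differed between the settings. Windows of 300 bases overlapped by 1 base or more numbered 71, at 69 genes. Composition is that of the whole window, much of which can lie outside the region. Isolated regions covered 5 to 298 bases of a window, and flanking regions 1 to 214. The 35 with isolated regions had a median GC content of 53.0%, 8 CpG and an observed over expected CpG of 0.405, and 1 (2.86%) had the composition of a CpG island. The 36 with flanking regions had medians of 58.5%, 16.5 and 0.680, and 18 of the 36 were island-like. Over all 21263 windows the medians were 56.3%, 13 and 0.567, with 41.0% island-like. Windows under shared H2A.Z with INO80 were island-like at 77.5%, those under shared H2A.Z without INO80 at 40.9%, those under wild-type-only peaks without INO80 at 30.6% and those with no peak of any list at 3.30%. Over both settings together, 19 of the 71 windows (26.8%) were island-like, with a median GC of 55.7%. The isolated setting is chosen to lie away from other peaks, and its median GC of 53.0% compares with 47.3% for starts with no peak of any list. Windows were not tested, since the settings come from the lists and CpG content moves with being listed.

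**Figure D5:**
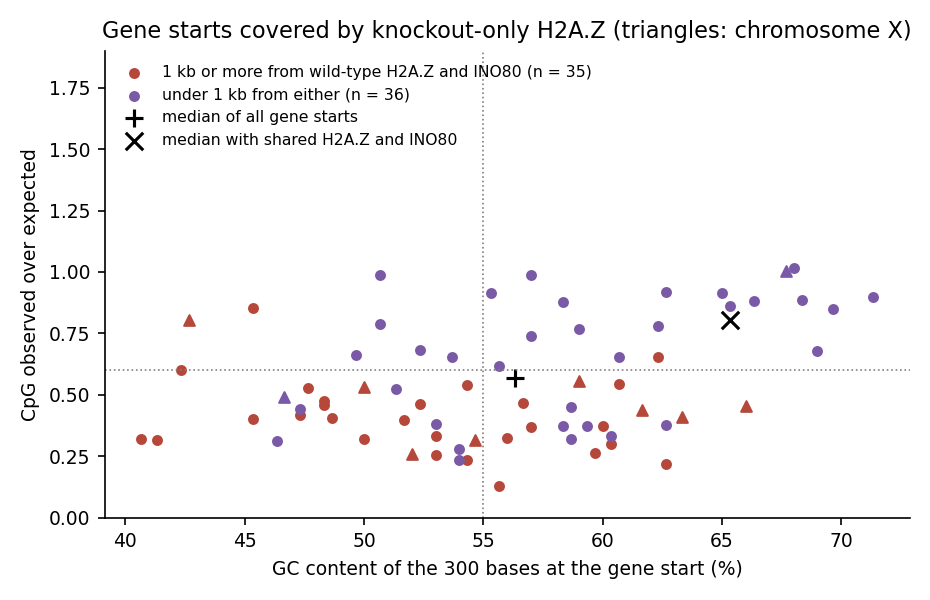
Each point is a gene-start window of 300 bases overlapped by a region, by GC content (%) and observed over expected CpG, in red for isolated (35) and purple for flanking regions (36), with triangles for chromosome X. Of the red points 1 lies in the upper right corner of island-like windows, against 18 of the purple points, and the plus and cross mark the medians of all starts and of starts with shared H2A.Z and INO80.

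Short motifs were counted on both strands of these windows, by their exact letters. GGGCGG, a GC box, was in 25.7% of isolated, 52.8% of flanking and 46.2% of all windows, and it moves with GC and CpG content. TATAAA was in 14.3%, 8.33% and 12.6%, and CCAAT in 37.1%, 44.4% and 38.2%. CACGTG was in 8.57%, 8.33% and 7.84%, and AAGATGG in 8.57%, 5.56% and 6.24%. TGACGTCA, the cyclic AMP response element, was in 0, 2 and 475 windows. With 35 and 36 windows, a few windows move these shares by several percentage points. A match of letters is a description of the sequence and not a measured site.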

How the data were processed

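Chromatin of P18 spermatogenic cells was fixed in 0.3% formaldehyde and cut with micrococcal nuclease, per the labels' protocols. The submitters' processing notes name Bowtie2, SAMtools, deepTools, MACS2 and mm10. Not given in the sources used here are tool versions and roles, the peak threshold, the control and any pooling of libraries. The authors deposited 3 lists of peak positions with no score or count. Overlap meant 1 shared bp or more, with counts equal in bedtools 2.31.1. The members, gene lists and alternatives were chosen with earlier results of these data known.

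Start sites came from RefSeq promoters on GRCm38.p6 (17492 of 21887 protein-coding genes, none on chromosome 18, so 45 regions were not used there). A start means within 1 kb, and inside a gene between its annotated ends. Exons and introns were not used. Shares were tested with two-sided Fisher's exact tests, Benjamini-Hochberg adjusted over 9 tests, and a threshold of 0.05. Intervals cover counting error only. Genes named are the 12 with the widest region at the start, genes with 3 or more regions, those nearest the 10 widest regions, list members at starts and up to 3 per list inside, and others only where said. Alternatives were separation, width, window, joined peaks, width strata, autosomes only, an equal list length and, added after seeing the data, either gene end as start. Python 3.11.15, pandas 2.3.3, scipy 1.17.1 and statsmodels 0.14.6 were used. The tests were tested on simulated data with independent draws, which leave out the dependence between neighbouring peaks.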

Additional observations from a re-analysis of the deposited data

How the results depend on the processing

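Of 69 alternative values of the 9 tests, 67 kept direction and side of the threshold. Against shared knockout peaks without INO80, the odds ratio on X was 1.49 (exact test, adjusted p = 0.229) among peaks of 200 bp or more and ran from 1.49 to 2.10 over the alternatives. Against knockout-only peaks with INO80, it reversed to 0.843 (0.528 to 1.38, exact test, adjusted p = 0.531) when the wild-type list was shortened, by width, to the length of the knockout list. The cause was not tested. The odds ratio at starts against wild-type-only peaks without INO80 ran from 1.46 to 2.23, and on X from 2.12 to 3.12.

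The number of regions was 866 at a separation of 1 kb from both lists, 519 among peaks of 200 bp or more and 2949 with the shortened wild-type list. The number of genes with a region at the start was 119 at a separation of 250 bp, 61 at 1 kb, 63 among peaks of 200 bp or more and 459 with the shortened list. No paired analysis was possible because the peak lists carry no replicate, so no replicate could be left out either. Depth per library is unknown.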

Other observations

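Most regions had no other region within 10 kb, and their spacing was not compared with random placement. Joined at 10 kb, 1284 of 1344 (95.5%) stood alone and 30 pairs remained, while 82.4% of wild-type-only and 80.4% of shared peaks without INO80 stood alone, classes that hold more peaks and so lie closer together. Joined at 200 kb, the run with most members was 6 regions in 436 kb of chromosome 2 around Tshz2, and runs of 5 lay in 282 kb of chromosome 17 near Cdkn1a, the cell cycle inhibitor p21, and in 493 kb of chromosome 4. On X, 4 regions lay within 267 kb from Timm8a1 to Armcx2. These groups were chosen after their positions were seen.

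No annotated gene of any type overlapped 637 regions (47.4%), and 160 lay more than 100 kb from a protein-coding gene. These counts were not made for the other classes, so they cannot show whether the regions differ in this. Long noncoding RNA genes were overlapped by 207 (15.4%), beside 15.2% of wild-type-only and 15.9% of shared peaks without INO80. A single microRNA gene, Mir210, was overlapped, by a region of 173 bp. None of 355 vomeronasal receptor genes and 2 of 1110 olfactory receptor genes (0.180%) held a region inside, beside 2.17% of all genes. Their median lengths were 0.963 and 0.95 kb, against 17.2 kb for all genes, and the part of length in these counts was not tested.

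A few more regions are given by value, at genes chosen after their values were seen. Flanking regions were 114 of the 175 at starts, and the first 3 are of that kind. H2ac1 and H2bc1, the divergent pair of testis histone genes, shared 294 bp, 497 bases from wild-type H2A.Z. Cdk2 had 186 bp, 520 bases away, and Ccnb1, cyclin B1, 166 bp, 208 bases away. All of these genes also had wild-type H2A.Z and INO80 at a start, and Cdk2 and Ccnb1 another knockout peak. INO80 lay 491 bases from the histone gene region, 503 from that at Cdk2 and 295 from that at Ccnb1. Dmrtb1, a regulator of the switch from mitosis to meiosis, held 158 bp at 351 bases and 578 bp at 14.8 kb from wild-type H2A.Z.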
